A study of Oryza sativa with 4 samples.

Results

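The genes described here are the rice cDNAs on the array whose descriptions name a peroxidase, a catalase, a superoxide dismutase, glutathione, glutaredoxin, thioredoxin, peroxiredoxin or ascorbate. They were found by these words in the probe descriptions, with 1 ferredoxin entry left out, and number 214 of 21495 probes. By description they comprise 87 class III peroxidases, 54 glutathione S-transferases, 21 thioredoxins and their reductases, 12 ascorbate peroxidases, 11 other glutathione enzymes or transporters, 6 other ascorbate enzymes, 6 superoxide dismutases (1 of them its copper chaperone), 5 peroxiredoxins, 3 catalases, 3 glutathione peroxidases and 3 glutaredoxins. The words also took in 3 cDNAs that encode no antioxidant enzyme, namely a glyoxal oxidase and a pair of DNA-binding proteins that bind an ascorbate oxidase promoter. These 3 were kept, since the rule takes them, and are given apart.

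Class III peroxidases are secreted haem enzymes of plants that use hydrogen peroxide to oxidise phenolic compounds. In the cell wall they couple lignin monomers and cross-link wall polymers, which stiffens the wall, and they can also generate reactive oxygen. Superoxide dismutases, catalases and ascorbate peroxidases remove superoxide and hydrogen peroxide, and the ascorbate-glutathione cycle returns oxidised ascorbate to its reduced form. Glutathione S-transferases attach glutathione to reactive or foreign molecules, while thioredoxins, glutaredoxins and peroxiredoxins act through reversible oxidation of cysteine thiols.

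The study compared branching panicles of rice (cultivar TP309) that carried a construct against RFL with wild type TP309 panicles. RFL encodes the LEAFY-type transcription factor of rice, which acts in flowering and panicle branching. On 2 arrays the transgenic panicles expressed RFL antisense RNA, and on 2 arrays they carried a double-stranded RNA interference construct, dsRNAiRFL (called dsRNAi below). Every array paired a transgenic with a wild type sample in opposite dyes, and each construct had 1 array of either dye orientation. The labels give neither the promoter of the constructs nor the number of lines or plants behind an RNA pool, and no age of the plants. The design text calls the RNA pools independent, but the labels do not say which pool went to which array, so the p-values measure a spread between arrays that may be technical. Of 21495 probes, 0 name RFL or LEAFY in their description, so the targeted gene was not analysed here.

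Between 16106 and 18191 probes were well above background in the transgenic channels and between 14722 and 17270 in the wild type channels. Across all probes the log2 ratios of the antisense arrays correlated at 0.926 and those of the dsRNAi arrays at 0.815. The number of arrays limits the precision. Among the panicle and meristem genes looked up by description (KNOX and MADS-box genes), 35 of 36 were above background in at least 1 channel. Markers of other tissues were also detected, with 45 of 51 photosynthesis, 7 of 13 anther or pollen, 8 of 15 seed storage and 68 of 76 lignin and secondary wall cDNAs. The mean log2 signal of the photosynthesis list ranged from 8.74 to 9.41 over the transgenic channels and from 8.77 to 9.67 over the wild type channels. For the lignin list it ranged from 8.14 to 8.16 and from 8.22 to 8.44, for the anther list from 9.30 to 9.49 and from 8.80 to 9.31, and for the seed storage list from 6.91 to 7.04 and from 6.92 to 7.21. The panicle and meristem list itself ranged from 9.61 to 9.78 in the transgenic and from 9.28 to 9.38 in the wild type channels, and these do not overlap. Their part in the results was not tested. In such bulk samples, fewer cells of a type and less RNA per cell cannot be told apart.

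Ratios below are on the log2 scale, transgenic panicles over wild type, so that 1 is a 2-fold higher and -1 a 2-fold lower signal. They are given per array, then as a mean ± SE from a limma fit across all tested probes (n = 4 arrays for the mean of both constructs, n = 2 for each construct), with Benjamini-Hochberg adjusted p. A gene is called where that p is under 0.05. Between the arrays of a pair, the median absolute difference over the members was 0.162 with antisense and 0.21 with dsRNAi. The SE and p of the mean rest on the spread within each construct and take no account of how far the constructs disagree. A blocked fit, with a random effect for construct, lets it enter (correlation 0.413) and kept 23 of the 49 mean calls named here. Averaging each construct's arrays left limma no call among the members (0, with 38 at an unadjusted p under 0.05), and median centring in place of loess kept 14 of the 49.

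Of the 214 members, 162 were bright enough to be tested, 52 were not, and 35 of those 52 were above background in 0 of 8 channels. Class III peroxidases were often dim. Of the 87, 30 (34.5%) were above background in all 8 channels, compared with 24 of 54 glutathione S-transferases (44.4%), 15 of 21 thioredoxins (71.4%) and 65.3% of all probes. A member that passed because it was bright in only 1 group had to differ, so the counts below describe the tested members and not the families as a whole. Probes carry the names of the cDNAs they were designed on. Only 78 of the 214 are described as rice genes, and the others bear the name of a homologue from another species, which is given here as a description. No chromosome position is given, because the files hold none and 0 of the 214 names were found in the reference gene table.

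In the mean of both constructs, 40 of the 162 tested members rose, 51 fell and 71 were not called. Over all tested probes 41.7% were called, 20.4% higher and 21.3% lower, so the members' 24.7% higher and 31.5% lower stand against a large background. Falls of at least 2-fold numbered 16 (9.88%, against 4.64% of all tested probes), and rises of that size 4 (2.47%, against 3.52%). The median of the members was -0.09, against -0.0016 over all tested probes. Members described as rice genes (61 tested, 19 higher and 16 lower, median -0.09) and those described by another species (101 tested, 21 higher and 35 lower, median -0.09) had like medians.

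**Figure D1:**
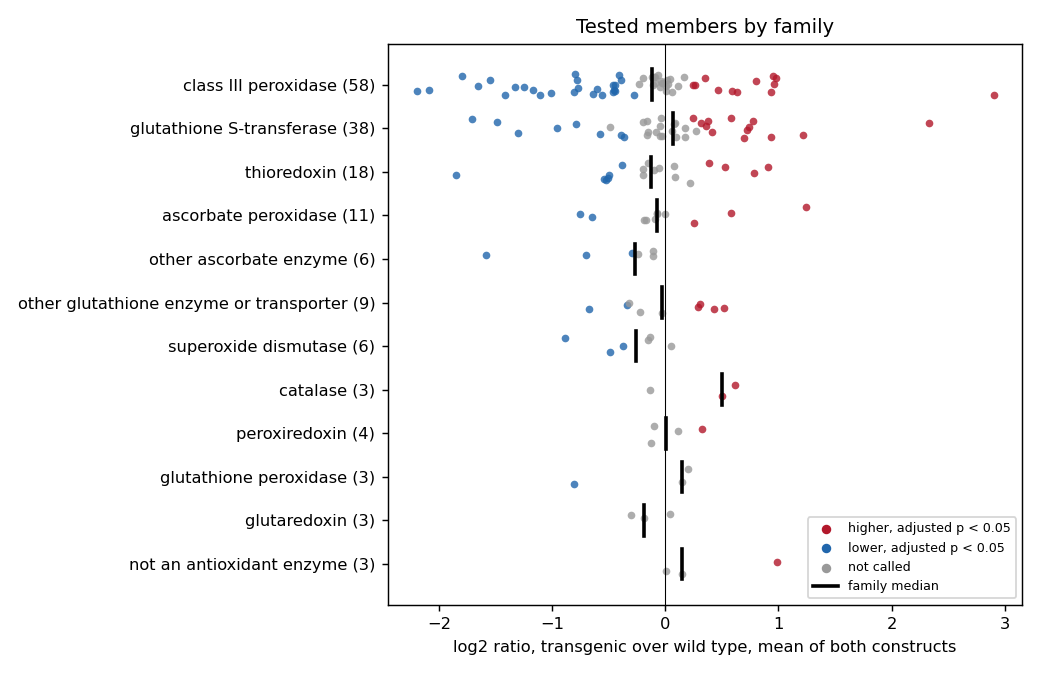
Log2 ratio of transgenic over wild type panicles (x axis, mean of both constructs) for each of the 162 tested members, 1 point per cDNA, by family with the number tested. Red and blue points were called higher or lower at an adjusted p under 0.05 and the black bar is the family median. Class III peroxidases reach from -2.20 to 2.90, with 26 lower and 12 higher.

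Class III peroxidases held most of the large falls. Of 58 tested, 26 fell and 12 rose in the mean of both constructs (44.8% and 20.7%), and 11 of the 16 members that fell at least 2-fold were of this family. Of the peroxidases called higher or lower, 25 had the same sign on all 4 arrays, against 6196 of 7543 calls over all tested probes. Some were called lower in the mean through dsRNAi alone. AK105544, for example, gave -0.01 with antisense (adjusted p = 0.971) and -1.59 with dsRNAi (adjusted p = 8.44e-05). The steepest fall was in AK069456, described by the tobacco peroxidase tpoxC1. Its log2 ratio was -2.19 and -2.43 on the antisense arrays and -2.12 and -2.05 on the dsRNAi arrays, a mean of -2.20 ± 0.08 (adjusted p = 1.4e-06). All 4 arrays lay within a narrow range, far below 0. In its channels, the log2 signal was between 7.28 and 7.64 in the transgenic samples and between 9.47 and 10.01 in the wild type samples, with no overlap.

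A further 4 peroxidases were at least 2-fold lower on every array. AK073833, described by a cotton peroxidase induced by bacteria, gave -1.42 and -1.42 on the antisense arrays, then -2.02 and -1.35 on the dsRNAi arrays (mean -1.55 ± 0.12, adjusted p = 3.01e-05). AK073978, described by the potato gene prx2, gave -1.36 and -1.34, then -2.18 and -1.74 (mean -1.66 ± 0.10, adjusted p = 8.34e-06). AK073360, described by a maize anionic peroxidase, gave -1.40 and -1.52, then -2.08 and -2.20 (mean -1.80 ± 0.08, adjusted p = 2.62e-06). In AK059661, described by the spinach clone PC56 and picked after its values were seen, the ratios were -1.40 and -1.40, then -1.31 and -1.22 (mean -1.33 ± 0.08, adjusted p = 8.71e-06). The difference between the constructs was called for AK073360 (-0.68 ± 0.16, adjusted p = 0.0257) and not for the other three. AK105708, described by peroxidase 1 of Scutellaria, fell as well, but unevenly, with -0.57 and -1.004 against -3.24 and -3.55 (mean -2.09 ± 0.10, adjusted p = 4.23e-06).

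The largest rise of any member was also in a class III peroxidase. AK060007, described by the spinach clone PC55, gave 4.27 and 4.90 with antisense but only 1.18 and 1.26 with dsRNAi (mean 2.90 ± 0.11, adjusted p = 1.61e-06). All 4 arrays were higher, and the antisense arrays by far more. POX8.1 (AK108994), a rice peroxidase gene by its description, gave 0.77, 0.89, 1.11 and 1.13 (mean 0.97 ± 0.08, adjusted p = 4.45e-05). Its wild type signal was not well above background on any of the 4 arrays, so the transgenic signal was at least 1.95-fold higher, a bound set by the dimmest signal that counts as above background. AK060984, described by the peanut cationic peroxidase PNC1, gave 1.07 and 1.36, then 0.77 and 0.54 (mean 0.93 ± 0.09, adjusted p = 0.000122). With antisense, where its wild type signal was not well above background, its mean ratio as measured was 2.32-fold. AK064360, described by maize pox2, gave 0.89, 0.64, 0.42 and 0.41 (mean 0.59 ± 0.08, adjusted p = 0.000888), and its wild type signal was not well above background on any array, which makes it at least 1.45-fold higher. With the deposited log ratio its value was 2.42 (adjusted p = 0.0983). AK071181, a second cDNA described by potato prx2, gave 1.72 and 1.56, then 0.33 and 0.24 (mean 0.96 ± 0.08, adjusted p = 5.63e-05, and 0.0787 in the blocked fit).

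Peroxidases that share a description did not move alike. The tested cDNAs described by tpoxC1 stood at -2.20 (AK069456) and -0.10 (AK065305), and those described by potato prx2 lay between -1.66 (AK073978) and 0.96 (AK071181). Of 5 described by the maize anionic peroxidase, 3 fell and 2 rose, from -1.80 (AK073360) to 0.35 (AK065090). In the mean, all 3 tested cDNAs described by the cotton bacterial-induced peroxidase fell, from -1.55 (AK073833) to -0.56 (AK060687). AK060687 was called with dsRNAi (-1.36, adjusted p = 0.00192) and not with antisense (0.25, adjusted p = 0.371). Of 6 described by maize pox2, 3 rose and 0 fell in the mean, the highest being AK061809 at 0.80. AK061809 gave 1.83 with antisense and -0.22 with dsRNAi, the latter not called (adjusted p = 0.405). A shared description names a homologue, so these cDNAs may be of different rice genes, and cDNAs of near-identical genes may share signal.

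**Figure D2:**
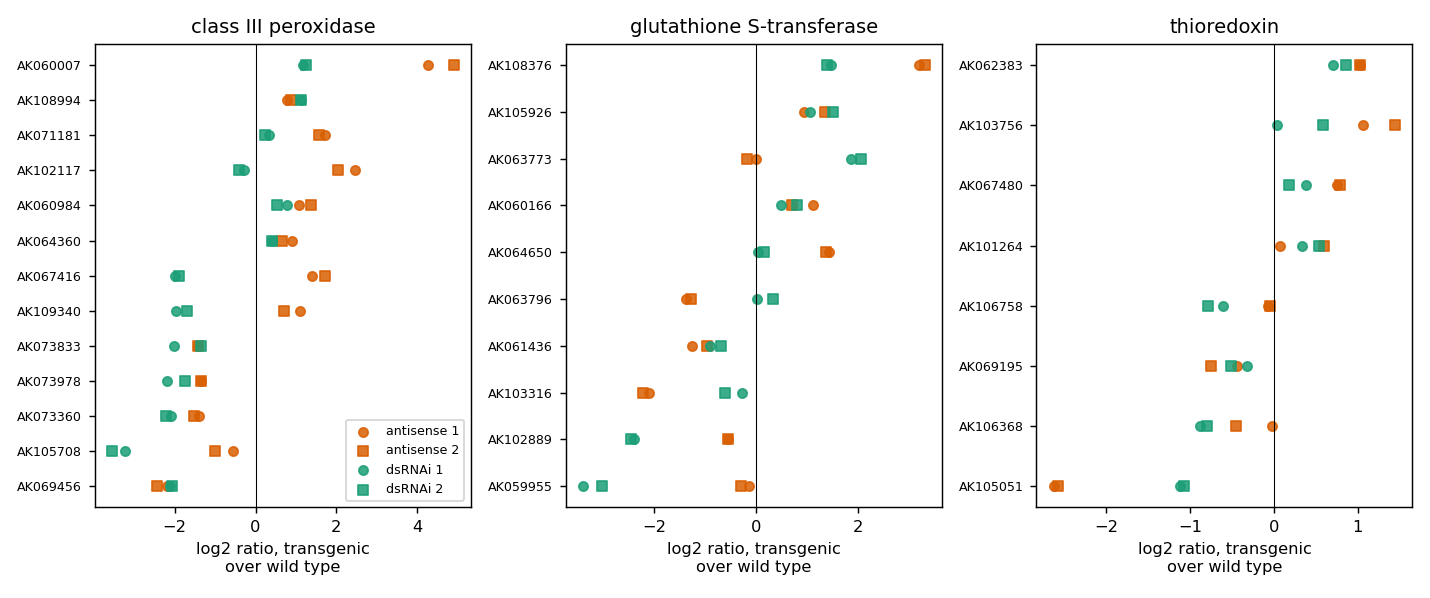
Log2 ratio of transgenic over wild type on each of the 4 arrays (x axis) for the named class III peroxidases, glutathione S-transferases and thioredoxins (y axis, by cDNA). Orange stands for antisense and green for dsRNAi, circles for replicate 1 and squares for replicate 2. The arrays of a pair lie close together, while the pairs lie apart in cDNAs such as AK067416 and AK059955.

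Each construct against its own wild type channels gave different counts for the peroxidases. With antisense, 38 members rose and 37 fell (background 37.2% called, 18.8% higher and 18.3% lower), and among class III peroxidases 14 rose and 15 fell (24.1% and 25.9%). Changes of at least 2-fold with antisense numbered 16 members higher and 11 lower, where 6% and 6.12% of all tested probes passed. With dsRNAi, 17 members rose and 48 fell (background 25.8%, 11.2% higher and 14.6% lower), and among class III peroxidases 6 rose and 25 fell (10.3% and 43.1%). Of those 25, 17 fell at least 2-fold, which is 29.3% of the tested peroxidases. Over all members 22 fell and 6 rose by that much with dsRNAi, where 4.8% and 2.04% of all tested probes did so. The median of the tested peroxidases was 0.05 and -0.03 on the antisense arrays and -0.45 and -0.38 on the dsRNAi arrays. Without either dsRNAi array the number of peroxidases called higher with dsRNAi was lower, at a minimum of 3.

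**Figure D3:**
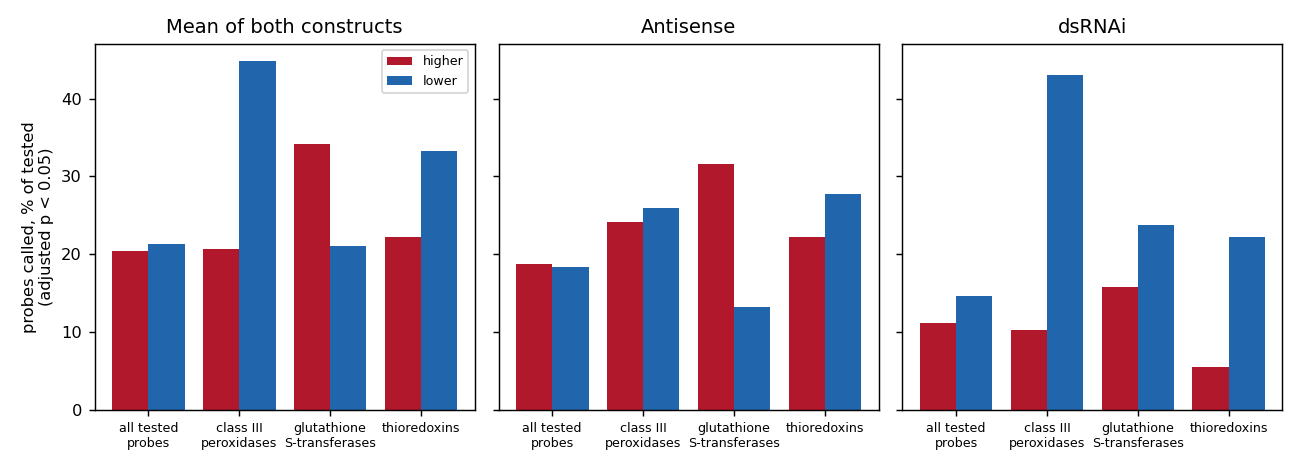
Share of tested probes called higher (red) or lower (blue) at an adjusted p under 0.05 (y axis, percent), for all 18094 tested probes and the 3 largest families, in the mean of both constructs and in each construct. Class III peroxidases were called lower in 44.8%, 25.9% and 43.1% and all tested probes in 21.3%, 18.3% and 14.6%.

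The difference between the constructs was tested directly, as dsRNAi minus antisense. Of the members, 8 were called higher and 38 lower in dsRNAi (background 16.4% called, 6.32% higher and 10.1% lower), and 24 of the 38 were class III peroxidases. Only 1 class III peroxidase was called higher. With median centring in place of loess, 0 members were called higher and 1 lower in this difference (limma). Differences of at least 2-fold numbered 23 lower and 5 higher among the members (5.17% and 2.69% of all tested probes). The separate channel fit of limma shows in which samples these differences lay. Between the wild type channels of the dsRNAi and the antisense arrays, which carry the same kind of sample by label, 50 members were called higher and 21 lower on the dsRNAi arrays (background 32.3%, 16.4% higher and 15.9% lower). Between the transgenic channels 8 were called higher and 3 lower (background 2.46%, 1.33% higher and 1.13% lower). For class III peroxidases the wild type channels gave 29 higher and 3 lower, and the transgenic channels 1 higher and 1 lower.

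All 24 peroxidases with a lower ratio in dsRNAi had a called higher wild type signal on the dsRNAi arrays, and 1 of the 24, AK071181, also had a called lower transgenic signal. Their median shift was 1.47 in the wild type channels and -0.09 in the transgenic channels. Over all probes, 32.3% were called between wild type and 2.46% between transgenic channels. The like share among all probes called in the difference was not counted, so this is not shown to be particular to peroxidases. The arrays of the constructs were scanned on 2 days, 1 construct on each, and read with different software versions, so construct, wild type pool, scan day and software version cannot be told apart. Set against the wild type channels of all 4 arrays together, a comparison added after the data were seen, 20 of 58 class III peroxidases were called lower and 6 higher with dsRNAi (background 13.4% lower and 12.4% higher). With antisense 11 were called lower and 11 higher (background 16.2% and 18.2%).

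AK067416, described by maize pox3, shows the pattern. Its ratios were 1.40 and 1.71 with antisense and -2.00 and -1.90 with dsRNAi, which differ by -3.50 ± 0.17 (adjusted p = 9e-05). Its log2 signal in the transgenic channels was 8.06 and 7.60 on the antisense and 7.30 and 7.60 on the dsRNAi arrays, and these overlap. In the wild type channels it was 6.66 and 5.89, not well above background, then 9.30 and 9.50. The wild type panicles of the dsRNAi arrays thus lay above, and those of the antisense arrays below, all 4 transgenic samples. With antisense its mean ratio as measured was 2.94-fold over its own dim wild type. Against all 4 wild type channels it was at 1.09 with antisense (adjusted p = 0.191) and -1.49 with dsRNAi (adjusted p = 0.102). Its mean, at -0.20 ± 0.09 (adjusted p = 0.109), turned sign with a normexp offset of 10 (0.14), the series table (0.40, adjusted p = 0.0325) and the deposited log ratio (0.87, adjusted p = 0.00437).

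Other peroxidases shared the called shift in wild type signal. AK109340, described by the wheat peroxidase WSP1, gave 1.11 and 0.71 with antisense but -1.96 and -1.69 with dsRNAi, a difference of -2.73 ± 0.20 (adjusted p = 0.000245). Its wild type signal shifted by 2.11 (adjusted p = 3.35e-05) and its transgenic signal by -0.63 (adjusted p = 0.123). AK102117, described by a pineapple peroxidase, gave 2.46 and 2.03 with antisense but -0.29 and -0.40 with dsRNAi. Its transgenic log2 signal lay between 12.39 and 12.64 on all 4 arrays, while the wild type signal was 10.18 and 10.45 on the antisense and 12.68 and 12.83 on the dsRNAi arrays. In AK105708 the transgenic signal lay between 7.56 and 7.91, and the wild type signal was 8.13 and 8.57, then 11.09 and 11.46. For AK060007 the wild type signal was 7.01 and 6.31 on the antisense arrays, well above background on 1 of the 2, then 9.61 and 9.45, against 10.71 to 11.28 in the transgenic channels, and all 4 transgenic values were above all 4 wild type values. Against all 4 wild type channels, AK109340 with antisense (0.59, adjusted p = 0.3), AK105708 with antisense (-1.22, adjusted p = 0.124) and AK060007 with dsRNAi (1.65, adjusted p = 0.0593) were no longer called. In the blocked fit the mean calls of AK102117 (0.95 ± 0.10) and AK109340 (-0.46 ± 0.10) ended (adjusted p = 0.301 and 0.658), and that of AK109340 also with the series table (0.0729).

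**Figure D4:**
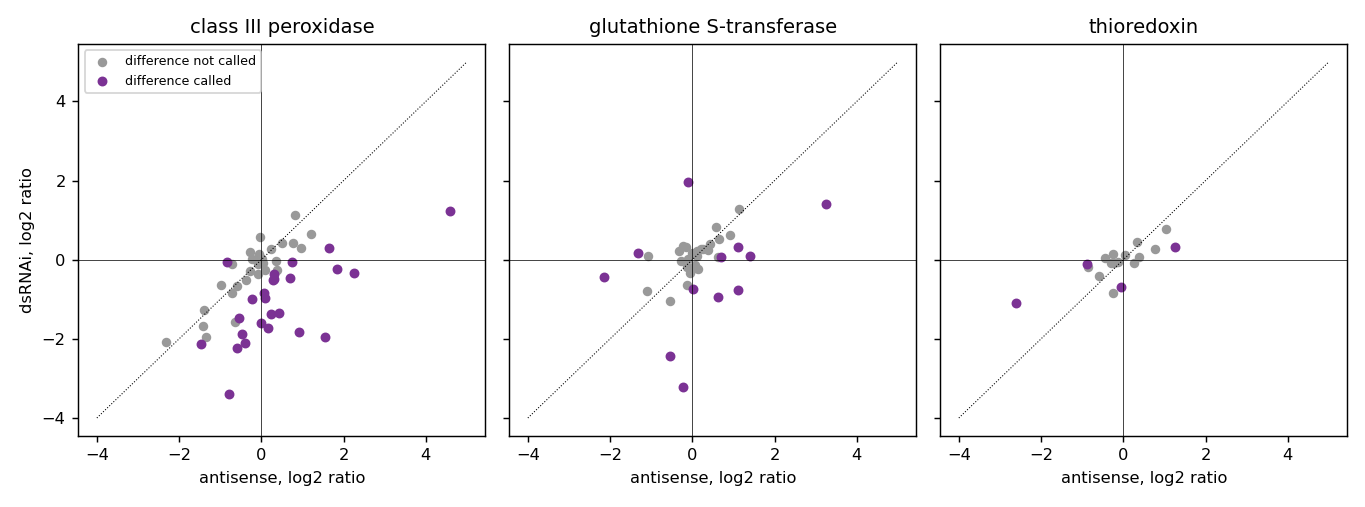
Log2 ratio with dsRNAi (y axis) against that with antisense (x axis), 1 point per tested cDNA and 1 panel per family, with the line of equal values dotted. Purple points differ between the constructs at an adjusted p under 0.05. Of the 25 such peroxidases, 24 lie below the line.

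**Figure D5:**
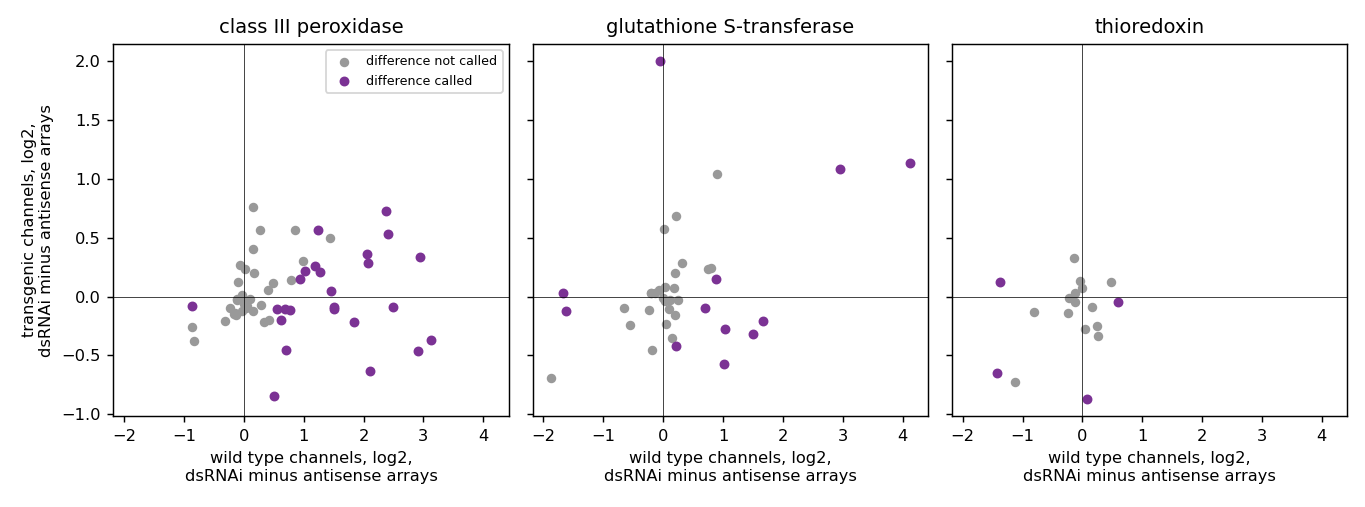
Difference between the dsRNAi and the antisense arrays in log2 signal, in the wild type channels (x axis) and in the transgenic channels (y axis), 1 point per tested cDNA. Purple points differ between the constructs in their ratio. The purple peroxidases spread along the x axis up to 3.13, while AK063773 stands at 2.00 on the y axis among the glutathione S-transferases.

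Glutathione S-transferases moved both ways. Of 38 tested, 13 rose and 8 fell in the mean of both constructs (34.2% and 21.1%, against 20.4% and 21.3% of all tested probes), with a median of 0.07. With antisense 12 rose and 5 fell (31.6% and 13.2%, background 18.8% and 18.3%). With dsRNAi 6 rose and 9 fell (15.8% and 23.7%, background 11.2% and 14.6%). Against the wild type channels of all 4 arrays, the comparison added later, 9 were called higher and 8 lower with dsRNAi (background 12.4% and 13.4%). With antisense 9 were called higher and 4 lower in that comparison (background 18.2% and 16.2%). Of the 9 called lower in dsRNAi minus antisense, 8 had a called higher wild type signal on the dsRNAi arrays. By the rice names in the descriptions, 24 are of the tau class and 3 of the phi class, both of which plants use largely in detoxification, 3 of the zeta class, which acts in tyrosine breakdown, and 1 of the theta class. All 3 zeta cDNAs rose in the mean (0.36 to 0.42), as did the theta cDNA OsGSTT1. Of the zeta cDNAs, 2 share the name OsGSTZ2 (AK065921 and AK073415). Against the wild type channels of all 4 arrays, neither of these was called with either construct (adjusted p from 0.0565 to 0.48). Of 15 tau cDNAs tested 5 rose and 2 fell, from -1.30 to 2.33, and of 2 phi cDNAs tested 1 fell. These class counts were made after the values were seen.

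The largest rise was in OsGSTU12 (AK108376), of the tau class. It gave 3.19 and 3.30 on the antisense arrays and 1.46 and 1.38 on the dsRNAi arrays (mean 2.33 ± 0.08, adjusted p = 8.35e-07), so that every array was higher and the antisense arrays more so. A second cDNA described as OsGSTU12, AK063773, behaved otherwise. It gave 0.00 and -0.19 with antisense but 1.85 and 2.06 with dsRNAi, a difference of 2.05 ± 0.17 (adjusted p = 0.000384). Its transgenic log2 signal was 7.03 and 6.99, then 9.21 and 8.81, while the wild type signal lay between 6.75 and 7.36 on all 4 arrays. Here the transgenic signal shifted (2.00, adjusted p = 0.000616), and the wild type shift was -0.05 (adjusted p = 0.873). Its mean, 0.93 ± 0.08, was not called in the blocked fit (adjusted p = 0.208).

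OsGSTU13 (AK105926) rose alike with both constructs, at 0.93, 1.35, 1.05 and 1.51 (mean 1.21 ± 0.11, adjusted p = 9.36e-05). With antisense, where its wild type signal was not well above background, its mean ratio as measured was 2.21-fold. Its signal in the dsRNAi arrays was higher in both the wild type (0.90, adjusted p = 0.0052) and the transgenic channels (1.04, adjusted p = 0.0266). OsGSTT1 (AK060166) gave 1.12, 0.70, 0.48 and 0.79 (mean 0.77 ± 0.10, adjusted p = 0.000633). AK064650, described by maize GST 20, rose with antisense (1.43 and 1.36) and gave 0.03 and 0.15 with dsRNAi, and its mean call (0.74 ± 0.08) ended in the blocked fit (adjusted p = 0.14).

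Among the falls, AK059955 and AK102889 stand out for the size of the shift in wild type signal. AK059955, described by maize GST 13, gave -0.14 and -0.29 with antisense but -3.40 and -3.02 with dsRNAi (mean -1.71 ± 0.09, adjusted p = 6.26e-06, and 0.119 in the blocked fit). Its wild type log2 signal was 8.44 and 8.66 on the antisense arrays and 12.70 and 12.59 on the dsRNAi arrays. Its transgenic signal also differed, at 8.29 and 8.37, then 9.30 and 9.57. AK102889, described by maize GST 11, gave -0.55 and -0.55, then -2.39 and -2.46 (mean -1.49 ± 0.08, adjusted p = 5.18e-06). In both, the shift was called in the wild type channels (4.13 and 2.96) and, in the same direction and smaller, in the transgenic channels (1.14 and 1.09). Against all 4 wild type channels AK102889 was not called with antisense (-0.99, adjusted p = 0.199).

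OsGSTU5 (AK103316) had lower ratios with antisense, with -2.10 and -2.21 against -0.28 and -0.61 with dsRNAi (mean -1.30 ± 0.09, adjusted p = 1.93e-05, and 0.0617 in the blocked fit). In the separate channel fit, dsRNAi minus antisense arrays, its wild type signal shifted by -1.67 (adjusted p = 0.00147) and its transgenic signal by 0.03 (adjusted p = 0.975). Its transgenic signal was well above background on 1 of 2 arrays of each construct. The dsRNAi fall, -0.45 (adjusted p = 0.0356), was not called without dsRNAi replicate 2 (adjusted p = 0.307) or against all 4 wild type channels (-0.70, adjusted p = 0.179). OsGSTU11 (AK061436) fell evenly, at -1.26, -0.96, -0.90 and -0.70 (mean -0.96 ± 0.09, adjusted p = 0.000106). OsGSTF5 (AK063796), of the phi class, gave -1.37 and -1.28 with antisense but 0.02 and 0.33 with dsRNAi, and its mean call (-0.57 ± 0.09) ended in the blocked fit (adjusted p = 0.302).

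Thioredoxins are small proteins that reduce disulfide bonds in other proteins. Of 18 tested cDNAs, 4 rose and 6 fell in the mean (22.2% and 33.3%, against 20.4% and 21.3% of all tested probes), with a median of -0.12. With antisense 4 rose and 5 fell (22.2% and 27.8%, background 18.8% and 18.3%). With dsRNAi 1 rose and 4 fell (5.56% and 22.2%, background 11.2% and 14.6%). The largest fall was in AK105051, described by the Arabidopsis thioredoxin gene At1g08570, with -2.63 and -2.58 on the antisense and -1.12 and -1.08 on the dsRNAi arrays (mean -1.85 ± 0.08, adjusted p = 2.06e-06). It was the only thioredoxin that fell at least 2-fold in the mean. Its transgenic log2 signal lay between 9.79 and 10.06 and its wild type signal at 12.48 and 12.45, then 10.91 and 11.14, so the difference of 1.51 ± 0.15 (adjusted p = 0.000801) lay in the wild type channels (-1.38, adjusted p = 5.44e-05). A second cDNA of that description, AK058426, fell to -0.52.

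The other named falls were smaller. AK106368, described by the wheat NADPH-thioredoxin reductase, which reduces thioredoxin, gave -0.02 and -0.46, then -0.88 and -0.80 (mean -0.54 ± 0.10, adjusted p = 0.00294). The other tested cDNA of its description, AK071251, stood at 0.08 and was not called (adjusted p = 0.484). AK069195, described by the pea chloroplast thioredoxin m2, gave -0.44, -0.75, -0.32 and -0.51 (mean -0.51 ± 0.09, adjusted p = 0.00298, and 0.0547 with the series table). The other tested m2 cDNA, AK099517, stood at -0.06 and was not called. Thioredoxin h RTRXH2 (AK106758) gave -0.07 and -0.05, then -0.61 and -0.79 (mean -0.38 ± 0.08, adjusted p = 0.00656). In the blocked fit these 3 calls ended (adjusted p = 0.115, 0.0617 and 0.203).

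The rises included cDNAs described as h-type thioredoxins, which are mostly cytosolic, and thioredoxin F, which activates enzymes of the chloroplast in light. Other h-type cDNAs fell, namely RTRXH2 and the rice thioredoxin h AK059196, which was picked after its values were seen. AK059196 gave -0.89 and -0.88, then 0.16 and -0.39 (mean -0.50 ± 0.10, adjusted p = 0.0066). AK062383, described by pea thioredoxin h, gave 1.03, 1.03, 0.71 and 0.86 (mean 0.91 ± 0.08, adjusted p = 7.09e-05), and all 4 arrays were close to each other. AK103756, described by a thioredoxin-like protein of the grass Phalaris, gave 1.07 and 1.45, then 0.04 and 0.59 (mean 0.79 ± 0.12, adjusted p = 0.00116). Its difference, -0.94 ± 0.23 (adjusted p = 0.0316), lay in the transgenic channels (-0.87, adjusted p = 0.0314) and was 0.07 in the wild type channels. The rice thioredoxin h-like AK067480 gave 0.75, 0.79, 0.38 and 0.17 (mean 0.53 ± 0.08, adjusted p = 0.00148). Rice thioredoxin F (AK101264) gave 0.07, 0.60, 0.34 and 0.53 (mean 0.39 ± 0.11, adjusted p = 0.021), a call that ended without antisense replicate 2 (0.126) and without dsRNAi replicate 2 (0.0627). In the blocked fit the calls of AK103756, AK067480 and AK101264 ended (adjusted p = 0.101, 0.0724 and 0.182).

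The 3 catalases, which break hydrogen peroxide down to water and oxygen, each gave their own pattern. AK099923 gave -0.55 and -0.48 with antisense but 1.43 and 1.60 with dsRNAi, opposite signs on the pairs. Its transgenic log2 signal was 6.09 and 6.31 on the antisense arrays, not well above background, and 8.31 and 8.18 on the dsRNAi arrays. Its wild type signal lay between 6.59 and 6.89 on all 4, so the shift was called in the transgenic channels (2.06, adjusted p = 0.000107) and not in the wild type channels (0.03, adjusted p = 0.884). As measured, it was 1.43-fold lower than wild type with antisense and 2.85-fold higher with dsRNAi, where the wild type signal was not well above background. The antisense call ended without antisense replicate 1 (adjusted p = 0.0961), and the mean (0.50 ± 0.08) was not called in the blocked fit (adjusted p = 0.5) or the series table (0.161). AK069446 rose with antisense (1.17 and 0.91) and gave 0.32 and 0.07 with dsRNAi (mean 0.62 ± 0.09, adjusted p = 0.00108, and 0.114 in the blocked fit). From the antisense to the dsRNAi arrays its wild type signal shifted by 0.46 (adjusted p = 0.03) and its transgenic signal by -0.38 (adjusted p = 0.197). AK066378 gave 0.37, 0.02, -0.31 and -0.61 and was not called in the mean (-0.13 ± 0.10, adjusted p = 0.316).

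The counts of the smaller families stand beside the same background in the mean, 20.4% higher and 21.3% lower. Of the 6 superoxide dismutase cDNAs, which cover the enzymes that turn superoxide into hydrogen peroxide, 3 fell and 0 rose. The manganese enzyme rmsod1 (AK070528), a form that works in mitochondria, gave -0.97, -1.42, -0.69 and -0.45 (mean -0.88 ± 0.10, adjusted p = 0.000296). AK065277, described by the soybean copper chaperone of copper/zinc superoxide dismutase, gave -0.60, -0.15, -0.43 and -0.78 (mean -0.49 ± 0.11, adjusted p = 0.00799). AK073785, described by a poplar copper/zinc enzyme, gave -0.36, -0.61, -0.31 and -0.21 (mean -0.37 ± 0.08, adjusted p = 0.00942). In the blocked fit AK065277 and AK073785 were not called (adjusted p = 0.118 and 0.122), and AK073785 also not without antisense replicate 2 (0.0598) or with the series table (0.13). The iron enzyme (AK071301, -0.15 ± 0.08), the plastidic copper/zinc enzyme (AK059841, -0.14 ± 0.09) and cuznsod1 (AK061662, 0.05 ± 0.08) were not called, with adjusted p of 0.197, 0.24 and 0.681.

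Ascorbate peroxidases use ascorbate to reduce hydrogen peroxide to water. Of 11 tested, 3 rose and 2 fell. AK108458, described by the barley peroxisomal enzyme HvAPX1, gave 1.54 and 1.93, then 0.79 and 0.70 (mean 1.24 ± 0.09, adjusted p = 3.03e-05), and differed between the constructs by -0.99 ± 0.18 (adjusted p = 0.0101), which was called neither between wild type (0.34, adjusted p = 0.165) nor between transgenic channels (-0.65, adjusted p = 0.0863). A second cDNA of that description, AK070842, stood at -0.07. Rice APXb rose in both tested cDNAs, with 0.58 ± 0.08 in AK102751 (0.44, 0.53, 0.66 and 0.68, adjusted p = 0.00068) and 0.25 in AK068430. Of 3 cDNAs described by the wheat thylakoid-bound enzyme, which acts beside the photosystems, 2 fell. AK103344 gave -0.70, -0.42, -1.08 and -0.82 (mean -0.76 ± 0.09, adjusted p = 0.000393), and AK063934 gave -0.83, -0.80, -0.56 and -0.41 (mean -0.65 ± 0.08, adjusted p = 0.000417). Photosynthesis cDNAs, in the list looked up by description, numbered 6 higher and 14 lower of 44 tested, with a median of -0.07, and their part in this fall was not tested.

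Of the other ascorbate enzymes, 3 of 6 fell and 0 rose. Rice ascorbate oxidase (AK105605), a cell wall enzyme that oxidises ascorbate, gave -0.60 and -0.55 with antisense but -2.43 and -2.79 with dsRNAi (mean -1.59 ± 0.09, adjusted p = 7.67e-06, and 0.0542 in the blocked fit). Its wild type log2 signal was 8.96 and 8.95, then 12.16 and 12.09, and its transgenic signal 8.36 and 8.40, then 9.73 and 9.30, so both were higher on the dsRNAi arrays. Against all 4 wild type channels it was called with dsRNAi (-2.13, adjusted p = 0.0321) and not with antisense (-1.05, adjusted p = 0.213). Monodehydroascorbate reductase, which regenerates ascorbate, had 4 cDNAs. AK102459 fell (-0.89, -0.71, -0.16 and -1.05, mean -0.70 ± 0.14, adjusted p = 0.00512), as did AK099848 (-0.12, -0.26, -0.44 and -0.35, mean -0.29 ± 0.08, adjusted p = 0.021). In the blocked fit neither was called (adjusted p = 0.0946 and 0.179), and AK099848 also not with the antisense arrays averaged (0.0793), with the series table (0.0506), without antisense replicate 2 (0.123) or without dsRNAi replicate 1 (0.0684). AK065585 (-0.24 ± 0.09, adjusted p = 0.0613), the cytosolic form AK071558 (-0.11 ± 0.08, adjusted p = 0.315) and dehydroascorbate reductase (AK070895, -0.11 ± 0.10, adjusted p = 0.394) were not called, and AK065585 was called with dye orientation as a term (adjusted p = 0.034).

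Among the other glutathione enzymes and transporters, 4 of 9 rose and 2 fell. Glutathione reductase, which returns glutathione to its reduced form, was represented by cDNAs of the same maize description that moved in opposite directions. AK108799 gave -0.88, -0.95, -0.48 and -0.38 (mean -0.67 ± 0.08, adjusted p = 0.000323), and AK103418 rose to 0.31. Glutathione synthetase, which makes glutathione, split in a like way. AK068792, described by the mustard gene, gave 0.80, 0.52, 0.52 and 0.24 (mean 0.52 ± 0.09, adjusted p = 0.00289), while AK099555, described by maize gsh2, gave -0.16, -0.06, -0.62 and -0.51 (mean -0.34 ± 0.08, adjusted p = 0.0109). A second gsh2 cDNA, AK103004, stood at -0.03 and was not called (adjusted p = 0.768). A rice glutathione transporter (AK072617) gave 0.65, 0.63, 0.26 and 0.17 (mean 0.43 ± 0.08, adjusted p = 0.0032). Of the 3 tested cDNAs of that description 1 rose and 0 fell, the lowest being AK073855 at -0.32. In the blocked fit the calls of AK068792, AK099555 and AK072617 ended (adjusted p = 0.0693, 0.188 and 0.0969), and that of AK099555 also without antisense replicate 1 (0.0615) and with the series table (-2.90, adjusted p = 0.0628).

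Thiol peroxidases and glutaredoxins had few calls. Rice GPX1 (AK062772), a glutathione peroxidase, gave -0.71 and -1.59, then -0.34 and -0.59 (mean -0.81 ± 0.14, adjusted p = 0.00265, and 0.096 in the blocked fit). The antisense arrays of this gene differ by more than most pairs. The phospholipid hydroperoxide forms AK073938 (0.14 ± 0.10) and AK101583 (0.20 ± 0.12) were not called (adjusted p = 0.301 and 0.207). Of 4 tested peroxiredoxins, peroxidases that use a cysteine in place of haem, only peroxiredoxin Q (AK059845) was called, at 0.30, 0.25, 0.20 and 0.52 (mean 0.32 ± 0.09, adjusted p = 0.0211). That call ended in the blocked fit (0.171), with the antisense arrays averaged (0.0579), without antisense replicate 1 (0.0718) and without dsRNAi replicate 2 (0.0991). The others lay between -0.13 (AK068919) and 0.11 (AK058459). None of the 3 glutaredoxins was called in the mean (-0.31 to 0.04, smallest adjusted p = 0.105). Without dsRNAi replicate 2 the rice glutaredoxin AK062117 was called lower (-0.52, adjusted p = 0.00324).

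Of the 3 cDNAs that are not antioxidant enzymes, AK066912, described by the pumpkin protein AOBP that binds the ascorbate oxidase promoter, rose (1.15, 1.25, 0.64 and 0.93, mean 0.99 ± 0.09, adjusted p = 7.1e-05). A second AOBP cDNA, AK060900, stood at 0.00 ± 0.14 with arrays of either sign. The glyoxal oxidase cDNA AK110148, described by a fungal enzyme that makes hydrogen peroxide, stood at 0.15 ± 0.08 (adjusted p = 0.179) and was called with the series table (0.59, adjusted p = 0.0148).

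Lists of neighbouring functions were found by description. Their counts stand against 20.4% higher and 21.3% lower over all tested probes in the mean, 18.8% and 18.3% with antisense, and 11.2% and 14.6% with dsRNAi. Of 34 tested cDNAs for enzymes that make hydrogen peroxide or superoxide, such as oxidases and germins, 10 rose and 6 fell (median -0.02). With antisense 13 rose and 1 fell, and with dsRNAi 5 rose and 8 fell. In the mean, the largest rise was in germin-like protein 2 (AK059781, 4.34 ± 0.14, adjusted p = 7.42e-07) and the largest fall in germin-like protein 8 (AK060864, -0.73 ± 0.08, adjusted p = 0.000239). AK059781 gave 7.04 with antisense and 1.63 with dsRNAi. AK060864 fell with dsRNAi (-1.43, adjusted p = 0.000118) and was not called with antisense (-0.03, adjusted p = 0.873). It was well above background on 1 array in the transgenic channels and 2 in the wild type channels. Of 14 cDNAs for the synthesis of ascorbate and glutathione and the supply of NADPH, which the reductases consume, 2 rose and 2 fell (median 0.02). The extremes were a pair of cDNAs of 1 description, NADP-specific isocitrate dehydrogenase, with AK061752 at 0.34 ± 0.08 and AK072762 at -0.83 ± 0.10 (adjusted p = 0.0125 and 0.000376). AK061752 gave 0.65 with antisense and 0.03 with dsRNAi, the latter not called (adjusted p = 0.898), and AK072762 gave -1.06 and -0.60.

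Of 42 other redox protection cDNAs 13 rose and 12 fell. Their extremes were the aldehyde dehydrogenase AK104746 (2.26 ± 0.10, adjusted p = 2.54e-06) and AK063041, described by a wheat blue copper-binding protein (-2.67 ± 0.09, adjusted p = 7.11e-07). AK104746 gave 3.34 with antisense and 1.19 with dsRNAi, and AK063041 gave -4.06 and -1.29. Of 61 lignin and secondary wall cDNAs, in whose pathway class III peroxidases act last, 12 rose and 24 fell (median -0.17), which were 14 and 14 for antisense, 11 and 20 for dsRNAi. The extremes were AK070381, an anthranilate hydroxycinnamoyl transferase by its Arabidopsis description (2.69 ± 0.11, adjusted p = 1.98e-06), and AK064401, described by poplar cinnamoyl CoA reductase (-2.93 ± 0.13, adjusted p = 2.88e-06). AK070381 gave 3.67 with antisense and 1.71 with dsRNAi, and AK064401 gave -5.20 and -0.66. For all list cDNAs the SE and p of the mean take no account of how far the constructs disagree. Their values in the blocked fit are not given here.

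The lists of other tissues and of the panicle itself are read against the same background in the mean, 20.4% higher and 21.3% lower. Of 7 tested anther and pollen cDNAs 3 rose and 0 fell, led by AK070662, described by a juniper pollen allergen (1.48 ± 0.10, adjusted p = 2.18e-05). It gave 2.24 with antisense and 0.72 with dsRNAi. Of 8 seed storage cDNAs 2 fell, the globulin-like AK063624 most (-1.09 ± 0.19, adjusted p = 0.00286). AK063624 gave -1.78 with antisense and -0.39 with dsRNAi, the latter not called (adjusted p = 0.343). Photosynthesis cDNAs ranged from -1.03 ± 0.11 in the photosystem subunit PSI-H (AK060254, adjusted p = 0.00022) to 0.81 ± 0.08 in the chlorophyll-binding protein Cab27 (AK060265, adjusted p = 0.000148). PSI-H gave -1.13 with antisense and -0.93 with dsRNAi. Cab27 gave 1.43 and 0.19, the latter not called (adjusted p = 0.284). Of 34 meristem and floral cDNAs 16 rose and 3 fell. They ranged from -1.28 ± 0.09 in a MADS box-like gene (AK100227, adjusted p = 2.2e-05) to 2.90 ± 0.11 in HOS66 (AK060316, adjusted p = 1.72e-06). HOS66 is described as a KNOX family gene of class 2. The part of these tissues in the values of the peroxidases and antioxidant enzymes was not tested.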

How the data were processed

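RNA of transgenic and wild type TP309 branching panicles was measured on 4 arrays with 2 dyes, grouped by construct (n = 2 each). Replicate 1 has the transgenic RNA in Cy5 and replicate 2 in Cy3. The labelling text of the exchanged arrays names the other dye than the label fields, which were followed. The deposited spot intensities came, per the file headers, from Agilent Feature Extraction (8.1.1.1 for antisense, 9.1.3.1 for dsRNAi). That software also wrote the deposited log10 ratio of red over green, after its own background and dye correction, per the file headers. A table of log2 ratios deposited for the series was made in a way not given in the sources used here. Its rows follow the sorted probe names. The correlations of its columns with the scanner ratio (0.959, 0.975, 0.839 and 0.852) gave scale and direction, and their medians, as transgenic over wild type, are -0.0046, -0.0366, 0.0842 and 0.0521. Their centring is unknown.

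Mean signals were corrected for the median background by normexp (offset 50) and normalized by loess within arrays in limma 3.58.1 (R 4.3.3), with control and outlier spots at weight 0. Of 21495 probes, 18094 were tested, namely those well above background on at least 2 arrays in 1 channel or both, with 1 coefficient per construct, eBayes and Benjamini-Hochberg adjustment at 0.05. Channels were compared in the separate channel fit after Aquantile (17997 probes, correlation within spots 0.245). A probe not well above background on all arrays of a group has a bound, from mean log2 signals over the higher of the dimmest signal above background and its own. Where its own signal was the higher, the value equals the measured ratio and is not called a bound. In simulated data for 17997 probes the mean of both constructs recovered 30%, 74%, 94% and 98% of changes of 0.5, 1, 2 and 3 in log2, and the difference between constructs 0%, 18%, 68% and 90%. Only 50 probes were changed by each size, with independent normal noise. Here 41.7% of tested probes were called in the mean, so these rates need not hold for the real data.

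Members and lists were chosen with earlier results of these data known. The neighbouring lists cover producers of hydrogen peroxide and superoxide, synthesis of ascorbate, glutathione and NADPH, other redox protection, photosynthesis, anther and pollen, seed storage, lignin and secondary wall, and meristem and floral genes. Named were, among members called in the mean with the same sign on all arrays, the 5 largest of each direction of class III peroxidases, the 4 largest of glutathione S-transferases and thioredoxins and the 2 largest of other families. Also named were all members of families with 6 or fewer tested, the 3 largest differences of each sign with opposite directions in the constructs, and the extremes of each list. Alternatives were the offset, deposited ratio, series table, median centring, filters, an intensity trend, a dye term, averaging, a random block and leaving out each array. Other software was statmod 1.5.0, Python 3.11.15, matplotlib 3.10.9, numpy 2.4.6 and pandas 2.3.3.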

Additional observations from a re-analysis of the deposited data

Results flagged for a closer look

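In 21 named members the ratio to wild type differed between the arrays of the constructs by limma's test of dsRNAi minus antisense (adjusted p under 0.05 over all tested probes). In 17 of the 21 a shift that opposes the difference was called between the wild type channels of the arrays. Between the transgenic channels a shift was called in 7, of which 4 (AK099923, AK063773, AK103756 and AK071181) had the direction of the difference. Over all members, 35 of the 38 lower and 6 of the 8 higher differences had such a called wild type shift, and 2 of each a called transgenic shift in the direction of the difference. The like counts among all probes called in the difference were not made, so these are not shown to be particular to the members. With median centring in place of loess only AK067416 of the 21 was still called (-3.52, adjusted p = 0.0334), and all 21 kept their sign. Among class III peroxidases the log2 differences were -3.50 for AK067416, -3.36 for AK060007, -2.73 for AK109340, -2.61 for AK105708, -2.59 for AK102117, -1.35 for AK071181 and -0.683 for AK073360. All 7 were lower with dsRNAi. Among glutathione S-transferases they were -2.99 for AK059955, -1.87 for AK102889, -1.82 for AK108376, -1.31 for AK064650, 1.5 for AK063796, 1.71 for AK103316 and 2.05 for AK063773. The thioredoxins gave -0.944 for AK103756, -0.638 for AK106758 and 1.51 for AK105051. The catalases gave -0.843 for AK069446 and 2.03 for AK099923. The ascorbate peroxidase AK108458 gave -0.992 and the ascorbate oxidase AK105605 gave -2.04. The test did not pass for AK069446 without antisense replicate 1 (adjusted p = 0.0695) or dsRNAi replicate 2 (0.0567), for AK073360 without antisense replicate 1 (0.119) or dsRNAi replicate 2 (0.0774), for AK103756 without antisense replicate 2 (0.062) or dsRNAi replicate 1 (0.0957), and for AK106758 when any array but dsRNAi replicate 1 was left out (0.1, 0.111 and 0.11). With the deposited log ratio and the series table it did not pass for AK069446 (0.0825 and 0.0877), AK073360 (0.11 and 0.114) or AK103756 (0.0912 and 0.123). With the antisense arrays averaged it did not pass for AK073360 (0.0843) or AK106758 (0.115), nor for AK073360 with a normexp offset of 10 (0.0628). Each construct was scanned on a day of its own and read with a software version of its own, so these cannot be told apart from the construct.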

How the results depend on the processing

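No paired analysis was possible because the labels give no replicate numbers that tie an antisense array to a dsRNAi array. Each ratio already pairs a transgenic with a wild type sample on 1 array. With dye orientation as a term, 167 of 169 values of named members kept their direction and side of the threshold, 1 lost its call and 1 gained one. Counts are of members called higher and lower. Median centring gave 4 and 10 in the mean of both constructs (class III peroxidases 1 and 5, glutathione S-transferases 2 and 3, thioredoxins 0 and 1), 5 and 3 with antisense (peroxidases 3 and 1), 1 and 4 with dsRNAi (peroxidases 0 and 1), 0 and 1 in the difference, 16 and 3 between wild type and 2 and 0 between transgenic channels. It leaves trends of the ratio with intensity in place, and over all probes it called 1117. A random effect for construct gave 13 and 18 in the mean (peroxidases 4 and 10, glutathione S-transferases 5 and 3, thioredoxins 1 and 1) and 2594 over all probes. Averaging each construct's arrays gave 0 in each direction for the members and for each family, and 0 over all probes (limma, smallest adjusted p = 0.118, with 38 members at an unadjusted p under 0.05). The series table gave 25 members lower in the difference and 3 thioredoxins lower in the mean. Under the other alternatives these counts stayed within 1.5 times, except as follows without single arrays. Channels could not be compared for the deposited ratio, the series table, averaged arrays, the random effect or the dye term.

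Leaving out 1 array at a time gave, in the mean, 31 to 36 higher and 48 to 52 lower (peroxidases 9 to 11 and 25 to 26, glutathione S-transferases 10 to 13 and 7 to 10, thioredoxins 3 to 4 and 6 to 7), and in the difference 8 to 10 and 31 to 37. With antisense it gave 28 to 42 and 30 to 39 (peroxidases 11 to 15 and 12 to 16), and with dsRNAi 12 to 19 and 41 to 52 (peroxidases 3 to 6 and 25 to 27). Between wild type channels it gave 40 to 44 and 16 to 19, and between transgenic channels 4 to 6 and 0 to 3, with the correlation within spots of all 4 arrays. The peroxidases called higher with dsRNAi fell past 1.5 times without either dsRNAi array, as did the transgenic channel calls lower, and those higher without dsRNAi replicate 2. The lone array of a construct is then assumed to vary like the other pair.

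Signs turned, without a call in the main setting, for the mean of AK067416 (0.14 with offset 10, 0.87 with the deposited log ratio, 0.40 with the series table), AK060900 (-0.0076 with the series table, and -0.15 to 0.16 over the arrays left out), AK071558 (0.016 with the series table, 0.0012 with median centring), AK058509 (0.035 with the series table), AK110148 (-0.25 with median centring), AK068919 (0.049 with median centring) and AK067828 (-0.12 to 0.20 over the arrays left out, with -0.000392 without dsRNAi replicate 1). The called dsRNAi value of AK064360 turned to -0.092 with median centring. The cause was not tested. Dim wild type signals limit some peroxidases that rose, such as AK108994 and AK064360, whose ratios to wild type are then bounds.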
